A study of Homo sapiens with 12 samples.

Results

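The genes described here encode 4 components of the complement system (C3, CFB, C1R and C1S) and 4 proteins that hold it in check (SERPING1, CD46, CD55 and CD59). They were taken by gene symbol and make up 8 of the 60603 genes in the count table. Of the 8, 7 passed the low-count filter, as did 17775 genes in all, and SERPING1 did not.

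The RNA came from T24, an established human bladder carcinoma line, and poly(A) RNA-seq was run on 12 libraries, 3 in each of 4 groups. The groups were WT cells with no treatment, WT cells given 5-Ad-IAA, NS1 cells with no treatment and NS1 cells given 5-Ad-IAA. 5-Ad-IAA is an auxin derivative used to switch on auxin-dependent degradation, and the series is about AlissAID, which uses such a ligase to remove endogenous proteins that carry no tag. The labels do not spell out what NS1 stands for. A monobody, a small engineered binding protein for RAS, carries this name too, but the sources used here do not tie it to these cells. Whether the NS1 line is 1 clone, and the dose and duration of 5-Ad-IAA, were not given in the sources used here.

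Complement is a chain of blood proteins, made mainly by the liver but also by epithelial cells, that marks and punctures foreign or damaged cells. C1r and C1s are the proteases of the first complex of the classical route, factor B (CFB) supplies the protease of the alternative route, and both routes cleave C3, the central protein whose fragments coat a target. C1 inhibitor (SERPING1) blocks C1r and C1s, while CD46, CD55 and CD59 sit on the surface of the body's own cells, where CD46 and CD55 disarm the C3-cleaving enzymes and CD59 blocks the final pore. Interferon-gamma and inflammatory cytokines are known to raise transcription of several components through STAT, IRF and NF-kB factors.

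Because these factors are known regulators, the 250 bases before each RefSeq start (GRCh38.p14) were searched on both strands for 3 motifs. The RefSeq promoter table held 5 of the 8 members (CFB, C1R, CD46, CD55 and CD59) in 10 windows. C3, C1S and SERPING1 were not among them. The core of the interferon-stimulated response element was written as GAAANNGAAA, the gamma-activated site that STAT dimers bind as TTCNNNGAA, and an NF-kB site as GGGNNTTTCC. The 4 stretches with a match are shown 5′ to 3′ on the strand of the gene, with the matching bases in capitals. The CFB response element lies 140 to 131 bases before the start and reads on the other strand (chr6:31945945-31945974, + strand). The CFB gamma-activated site lies 92 to 84 bases before it (chr6:31945993-31946022, + strand). That of C1R lies 86 to 78 bases before 1 of its starts (chr12:7091960-7091989, - strand), and that of CD59 lies 128 to 120 bases before 1 of its starts (chr11:33736588-33736617, - strand).
CFB response element: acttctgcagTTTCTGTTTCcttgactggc
CFB gamma-activated site: cgcttggatgTTCCGGGAAagtgatgtggg
C1R gamma-activated site: gccagtcctaTTCCTGGAAggggaggggag
CD59 gamma-activated site: ccacccggccTTCTCAGAAcctgggccagg

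The windows of CD46 and CD55 held none of the 3 motifs, and no member window held the NF-kB motif. Over all 35116 windows of the table, the response element core was present in 3.02%, the gamma-activated site in 6.57% and the NF-kB motif in 1.73%. A match is a description of the letters only. The CFB and C1R stretches also lie within annotated exons of other transcripts of these genes.

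Library totals ran from 10593934 to 20266996 counts. Levels are given as normalised CPM, counts scaled to a common library size, and triplets of values are always in the order of replicates 1, 2 and 3. The labels do not say whether replicates were separate cultures, so p-values measure the spread between these libraries, which may be technical. Replicate 1 stood apart from replicates 2 and 3 in all 4 groups, and within each line the treated and untreated libraries of the same number deviated from their group means together (correlations over genes of 0.256 to 0.752, against -0.353 to -0.542 between replicate 1 and the others). The deviations of each group sum to 0, so correlations between different numbers follow in part from the centring and are not separate evidence. Replicates 2 and 3 also correlated across numbers, at 0.248 to 0.371, about as much as with their own number (0.256 to 0.386), so the numbers set replicate 1 apart more clearly than they pair replicates 2 and 3. The inducer comparisons are therefore given both without and with the replicate number as a block within each line, and members are given without replicate 1 where that changes a call. Replicate 1 was also the deepest library of each group. It stood apart least clearly in untreated WT cells. There the chi-square per degree of freedom between the counts of a pair of libraries was 18.2 for replicates 2 and 3. Replicate 1 against them had 30.6 and 25.3, and in the other groups replicates 2 and 3 had 3.03 to 5.46. The part that depth or an unlabelled batch had in these values was not tested.

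The surface inhibitors were more abundant per length of transcript than the secreted components. Normalised CPM per kilobase of annotated exon, averaged over the 12 libraries, was 59.0 ± 9.91 (SD, n = 12) for CD59, 16.2 ± 4.41 for CD55 and 9.83 ± 1.54 for CD46. On the same scale C3 had 2.7 ± 2.3, C1R 1.16 ± 0.54, CFB 0.819 ± 0.469 and C1S 0.300 ± 0.277. CD59 was above CD55, CD55 above CD46 and CD46 above C3 in 12 of 12 libraries. The ranges of CD46 (7.51 to 12.8) and C3 (0.0667 to 6.33) lay close. Per kilobase of the longest annotated transcript, CD46 had 10.9 and C3 4.27 on average. The neighbours C3 and C1R kept that order in 9 of 12 libraries and C1R and CFB in 10 of 12, so those neighbours did not separate beyond their spread. CFB was above C1S in 12 of 12. Among the 17775 genes, the mean CPM of CD59 stood at percentile 99.0 and that of C1S at percentile 15.4. The components also varied most: the SD of log2 CPM over the 12 libraries was 2.06 for C3, 1.07 for C1S, 1.06 for CFB and 0.62 for C1R, against 0.43 for CD55, 0.24 for CD59 and 0.23 for CD46.

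**Figure D1:**
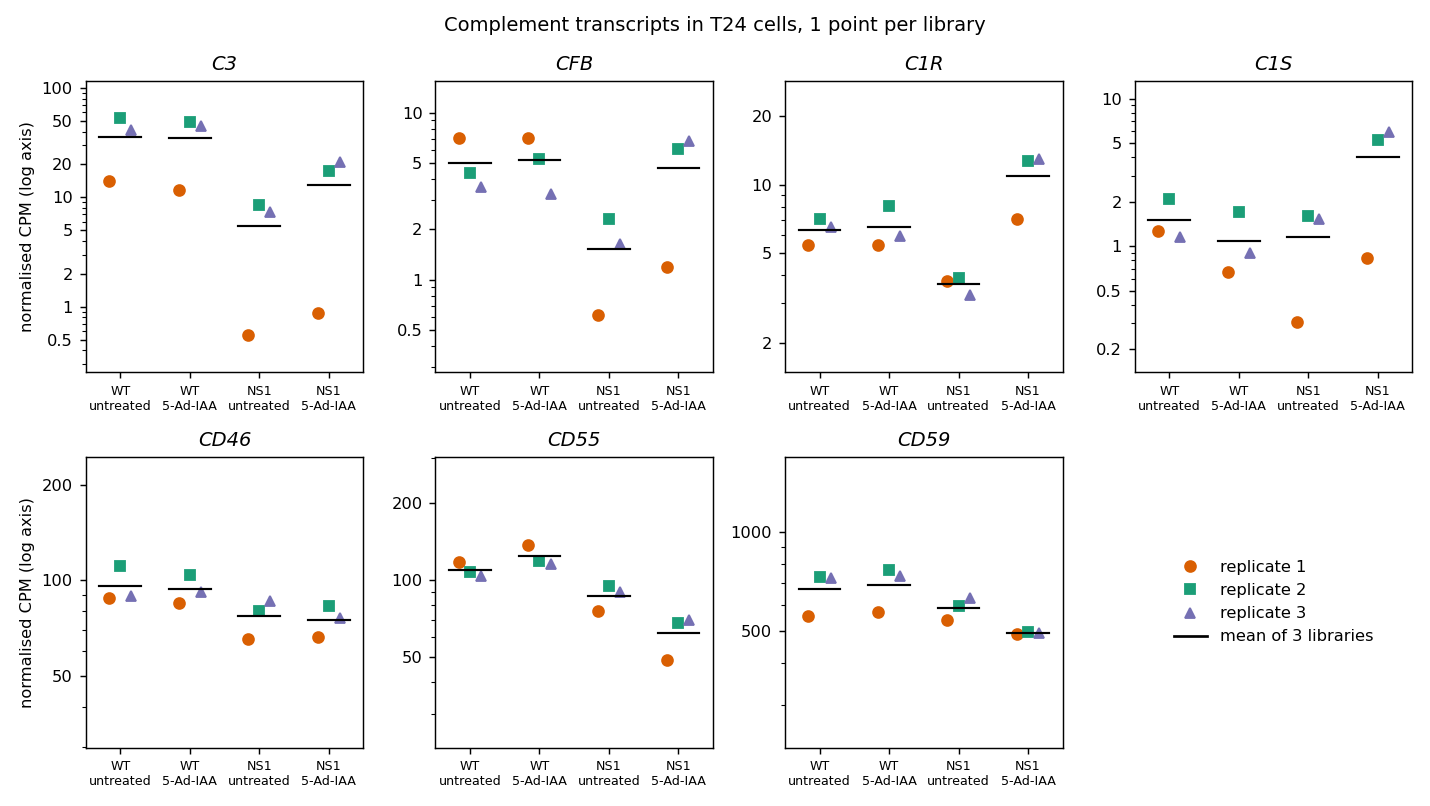
Normalised CPM (log axis) of the 7 members that passed the low-count filter, 1 panel per gene, by group. Points are libraries, shaped by replicate number, and the bar is the mean of 3. C3, CFB, C1R and C1S are higher in NS1 cells with 5-Ad-IAA than in the untreated library of the same number, CD55 and CD59 are lower, and in WT cells the points of a number lie close together except for C1S of replicate 1.

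With 5-Ad-IAA in NS1 cells, transcripts of the 4 components were higher and those of CD55 and CD59 were lower in the treated library of every replicate number, while CD46 moved little. In edgeR's quasi-likelihood test without the block, only C1R passed the adjusted p threshold of 0.05, 1 of the 7 members tested, where 6.15% of all genes tested were called. With the block within each line, 6 of 7 were called, 4 higher and 2 lower, where 25.9% of all genes were called. The median log2 fold change of the 7 was 1.25 without and 1.21 with the block, against 0.01 and 0.00 over all genes. In bulk RNA, fewer cells of a type and less RNA per cell cannot be told apart.

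C1R (ENSG00000159403.18, chromosome 12) read 3.77, 3.85 and 3.27 CPM in untreated NS1 cells and 7.07, 12.7 and 13.0 CPM in treated NS1 cells. Every treated library was above every untreated one. C1R rose 2.97-fold, or 1.57 on the log2 scale (SE 0.245, edgeR adjusted p = 0.00443), and with the block by 1.51 (SE 0.177, adjusted p = 2.26e-05). The call held in 6 of 6 fits that left out a single NS1 library (adjusted p up to 0.0255). Without the block it was lost when number 2 (adjusted p = 0.179) or number 3 (adjusted p = 0.205) was left out of all groups, where no gene of the table was called. Part of the C1R count may be shared with C1RL, a related gene whose exons overlap 11.4% of the exon bases of C1R, and how shared reads were counted is not given in the sources used here. C1RL had 1.07 to 2.56 times the count of C1R.

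C1S (ENSG00000182326.15, chromosome 12), the partner protease of C1r, read 0.309, 1.6 and 1.54 CPM in untreated and 0.832, 5.24 and 5.98 CPM in treated NS1 cells. The treated library of replicate 1 lay below both untreated libraries of replicates 2 and 3, so the groups overlapped, but within each number the treated value was 2.7, 3.28 and 3.89 times the untreated one. The log2 fold change was 1.81 (SE 0.666, edgeR adjusted p = 0.132), and C1S rose by 1.77 with the block (SE 0.233, adjusted p = 6.45e-05). Without replicate 1 and without the block the value was 1.83 (adjusted p = 0.00256). The transcript of EMG1 overlaps 3.54% of its exon bases. EMG1 had 12513 counts over all libraries, and C1S had 5 to 72 counts per library. The count of C1S is thus uncertain to the extent that reads could be assigned to either gene.

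C3 (ENSG00000125730.16, chr19:6677704-6730562, - strand, GENCODE 29 on GRCh38) had 0.556, 8.5 and 7.41 CPM in untreated and 0.884, 17.3 and 21.0 CPM in treated NS1 cells. These values rest on 9, 117 and 77 counts and on 17, 198 and 253 counts. Replicate 1 was more than 10 times below the other two in both groups, and the groups overlapped. The log2 fold change was 1.25 (SE 0.952, edgeR adjusted p = 0.517) without the block, and C3 rose by 1.21 with it (SE 0.152, adjusted p = 4.02e-05). Treated values were 1.59, 2.03 and 2.84 times the untreated ones. Leaving out replicate 1 gave 1.26 (adjusted p = 0.00085) with no block.

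CFB (ENSG00000243649.8, chr6:31945650-31952084, + strand, the same annotation) had 0.617, 2.33 and 1.64 CPM in untreated and 1.2, 6.02 and 6.81 CPM in treated NS1 cells. Again replicate 1 was lowest and the groups overlapped, with treated values 1.94, 2.59 and 4.16 times the untreated ones. The log2 fold change was 1.59 (SE 0.6, edgeR adjusted p = 0.142), and CFB rose by 1.54 with the block (SE 0.222, adjusted p = 0.000133). Without replicate 1 it was 1.67 (adjusted p = 0.00278). The gene ENSG00000244255 shares 45.0% of the exon bases of CFB and had 0.6 to 1.09 times its count. The counts of both were equal in NS1 replicate 2 untreated (32) and treated (69) and in untreated NS1 replicate 3 (17). They were also equal in WT replicate 3 untreated (37) and treated (36). Many reads may thus have been counted for both genes, which was not tested, and the count of CFB is uncertain to that extent.

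The surface inhibitors moved by smaller amounts. CD55 (ENSG00000196352.15, chr1:207321376-207386804, + strand), which speeds the decay of the C3-cleaving enzymes, had 75.7, 94.5 and 90.1 CPM in untreated and 48.9, 68.2 and 69.8 CPM in treated NS1 cells. Every treated library was below every untreated one. The log2 fold change was -0.48 (SE 0.14, edgeR adjusted p = 0.0606), and CD55 fell by 0.49 with the block (SE 0.0732, adjusted p = 0.00018). Without replicate 1 and without the block the value was -0.42 (adjusted p = 0.0131).

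CD59 (ENSG00000085063.16, chromosome 11) had 540, 595 and 630 CPM in untreated and 490, 499 and 494 CPM in treated NS1 cells, again without overlap. The change was small: -0.25 on the log2 scale (SE 0.134, edgeR adjusted p = 0.316), and with the block CD59 fell by 0.25 (SE 0.0715, adjusted p = 0.0185). That blocked call was lost when any 1 replicate number was left out (adjusted p from 0.0612 to 0.121). The gene ENSG00000284969 overlaps 6.07% of the exon bases of CD59 and had 0.45 to 0.499 times its count.

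CD46 (ENSG00000117335.19, chr1:207752057-207795513, + strand), a cofactor for the cleavage of C3b, had 65.4, 80.1 and 86.3 CPM in untreated and 66.3, 83.3 and 76.1 CPM in treated NS1 cells. The groups overlapped. The log2 fold change was -0.04 (95% interval -0.34 to 0.26, edgeR adjusted p = 0.922), and -0.03 with the block (adjusted p = 0.785).

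SERPING1 (ENSG00000149131.15, chr11:57597387-57614853, + strand) had 0 counts in all 12 libraries. A count of 0 allows up to 3 counts, or 0.141 to 0.29 CPM depending on the library, and this limit covers counting error only. The inhibitor of C1r and C1s was thus not detectable at this depth in either line, with or without the inducer, and it was not tested.

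Values without overlap between the groups were found for 3 of 7 members (C1R higher, CD55 and CD59 lower), where 27.2% of all genes had groups without overlap. With the block and any 1 replicate number left out, 5 of 7 members were called each time, namely C3, CFB, C1R and C1S higher and CD55 lower. Over all genes, those fits called 1822, 3183 and 4676 without number 1, 2 or 3.

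**Figure D2:**
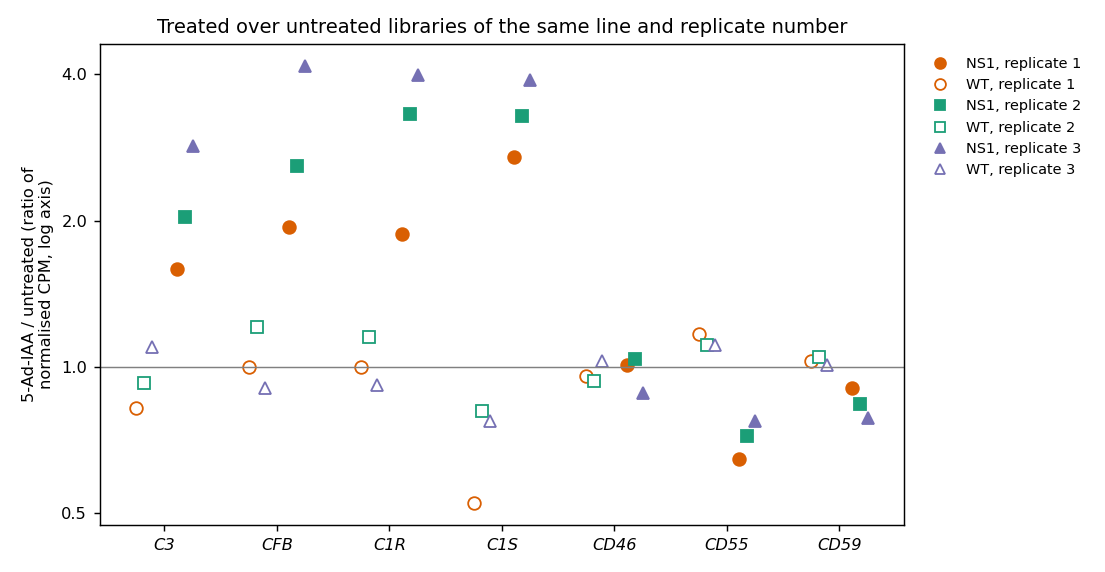
Treated over untreated normalised CPM (log axis) within each replicate number, for the 7 members that passed the filter, in WT and NS1 cells. In NS1 cells the components sit between 1.59 and 4.16 and CD55 and CD59 between 0.646 and 0.907, while in WT cells the ratios lie between 0.776 and 1.21 apart from C1S of replicate 1 at 0.525.

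In WT cells no member differed between untreated and treated libraries beyond the spread within the groups. C3 had 14.2, 52.7 and 41.1 CPM without and 11.7, 48.7 and 45.3 CPM with 5-Ad-IAA, and CFB had 7.03, 4.35 and 3.58 CPM without and 7.03, 5.27 and 3.24 CPM with it. C1R read 5.39, 7.06 and 6.48 CPM against 5.41, 8.09 and 5.94 CPM with the inducer. For C1S the values were 1.27, 2.10 and 1.16 CPM against 0.665, 1.71 and 0.901 CPM. These groups overlapped for all 4 components. The inhibitors overlapped too: CD46 had 88.2, 111 and 89.2 CPM against 84.6, 104 and 92.0 CPM with 5-Ad-IAA, and CD59 had 557, 729 and 725 CPM against 573, 764 and 732 CPM. CD55 had 117, 108 and 104 CPM without and 138, 119 and 116 CPM with the inducer, higher in the treated library of each number. The edgeR test called 0 of 7 members, with none at an unadjusted p under 0.05, and 0% of all genes (94 had an unadjusted p under 0.05). DESeq2 also called 0 members, and so did the fit with the block, where 1 member and 476 genes had an unadjusted p under 0.05. The log2 fold changes ran from -0.50 for C1S (SE 0.706) to 0.18 for CD55 (SE 0.138), each with an adjusted p of 1. For C3 the value was -0.03 (SE 0.821) without and -0.07 (SE 0.0985) with the block, and treated values were 0.823, 0.925 and 1.1 times the untreated ones. Groups without overlap were seen for 0 of 7 members, against 3.41% of all genes.

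Whether the inducer acted differently in NS1 and WT cells was tested by the interaction of line and inducer. Without the block, edgeR called 0 of 7 members, where 0.0225% of all genes were called. At an unadjusted p under 0.05 there were 3 members, as were 2196 of the 17775 genes. DESeq2 called 1 member, C1R (adjusted p = 0.00705), and 387 genes in all. The log2 differences between the effect in NS1 and that in WT cells were 1.53 for C1R (SE 0.34, edgeR adjusted p = 0.085), 2.31 for C1S (SE 0.972, adjusted p = 0.349), 1.54 for CFB (adjusted p = 0.466), 1.28 for C3 (adjusted p = 0.778) and -0.66 for CD55 (adjusted p = 0.163). Without replicate 1 and without the block, 4 of 7 passed: C3 (1.26, adjusted p = 0.0122), C1R (1.78, adjusted p = 0.00614), C1S (2.16, adjusted p = 0.0387) and CD55 (-0.57, adjusted p = 0.0381). That fit called 573 genes in all, against 4 with all libraries. With the block within each line 5 of 7 were called, where 14% of all genes were called. The blocked differences were 2.30 for C1S (SE 0.354, adjusted p = 0.000634), 1.49 for CFB (SE 0.277, adjusted p = 0.00238) and 1.47 for C1R (SE 0.247, adjusted p = 0.00115). C3 differed by 1.29 (SE 0.181, adjusted p = 0.000356) and CD55 by -0.67 (SE 0.102, adjusted p = 0.000568). CD59 had -0.29 (adjusted p = 0.0719) and CD46 0.00 (adjusted p = 0.985), and neither passed. Leaving replicate 1 out of the blocked fit ended the call for CD55 (adjusted p = 0.0743) and kept the 4 components, of which CFB had an adjusted p of 0.0498. That fit called 417 genes in all.

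Before any inducer was added, the NS1 line already had lower values than WT for C3, CFB, C1R, CD46 and CD55, with no overlap between the 3 libraries of each line. Groups without overlap were thus seen for 5 of 7 members, all lower, where 31% of all genes had such groups. The edgeR test called 0 of 7 members, against 12.5% of all genes. At an unadjusted p under 0.05 there were 5 members, as were 4948 of the 17775 genes. DESeq2 called 2 members, CFB (adjusted p = 0.0171) and C1R (adjusted p = 0.0452), and 2418 genes in all. The median log2 fold change of the members was -0.45, against 0.00 for all genes.

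C3 showed the widest gap between the untreated lines. Its mean was 36.0 ± 19.7 CPM (SD, n = 3) in WT and 5.49 ± 4.31 CPM in NS1 cells, 6.71-fold lower, or -2.75 on the log2 scale (SE 0.937, edgeR adjusted p = 0.0731). CFB had 4.99 ± 1.81 CPM in WT and 1.53 ± 0.86 CPM in NS1 cells, 3.4-fold lower, or -1.77 on the log2 scale (SE 0.59, adjusted p = 0.0681). The libraries labelled replicate 1 were the lowest of the NS1 line for both genes, whereas in the WT line replicate 1 was the lowest for C3 and the highest for CFB. C1R had 6.31 ± 0.847 CPM in WT and 3.63 ± 0.314 CPM in NS1 cells (log2 fold change -0.78, SE 0.25, adjusted p = 0.058). Without replicate 1 all 3 passed the test: C3 at -2.55 (adjusted p = 2.12e-06), CFB at -0.98 (adjusted p = 0.0393) and C1R at -0.92 (adjusted p = 0.00988). That fit called 3466 genes in all, against 2222 with all libraries. C1S overlapped between the lines, at -0.45 (SE 0.714, adjusted p = 0.737). The inhibitors differed by less: -0.34 for CD55 (SE 0.139, adjusted p = 0.13), -0.32 for CD46 (SE 0.138, adjusted p = 0.153) and -0.19 for CD59 (SE 0.133, adjusted p = 0.39).

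With 5-Ad-IAA in both lines, C1R was higher and CD55 and CD59 were lower in NS1 than in WT cells. These 3 of 7 members were called by edgeR, where 28.2% of all genes were called. CD55 had 124 ± 11.6 CPM (SD, n = 3) in WT and 62.3 ± 11.6 CPM in NS1 cells and fell by 1.00 on the log2 scale (SE 0.141, adjusted p = 0.000246), without overlap, and the call held in 6 of 6 fits that left out a library. CD59 had 690 ± 102 and 494 ± 4.66 CPM and fell by 0.48 (SE 0.134, adjusted p = 0.0169), also without overlap. Its call was lost without WT replicate 2 (adjusted p = 0.0752), WT replicate 3 (0.0613) or NS1 replicate 3 (0.0517). C1R had 6.48 ± 1.42 and 10.95 ± 3.36 CPM and rose by 0.75 (SE 0.232, adjusted p = 0.0281), with overlap. That call was lost without treated WT replicate 1 (adjusted p = 0.101) or 3 (0.0895), and without treated NS1 replicate 2 (0.106) or 3 (0.105).

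C3 was still at a lower mean in treated NS1 cells, 13.1 ± 10.7 CPM (SD, n = 3), than in treated WT cells, 35.3 ± 20.5 CPM, or -1.46 on the log2 scale (SE 0.865, edgeR adjusted p = 0.229). Without replicate 1 it was -1.29 and passed (adjusted p = 5.18e-05). CFB stood at 4.68 ± 3.04 CPM in treated NS1 and 5.18 ± 1.89 CPM in treated WT cells (-0.22, SE 0.523, adjusted p = 0.787), and without replicate 1 its sign turned, to 0.57 (adjusted p = 0.0875). C1S had 4.02 ± 2.78 and 1.09 ± 0.546 CPM (1.86, SE 0.659, adjusted p = 0.0501), close to the threshold. It passed in DESeq2 (adjusted p = 0.0194), without treated NS1 replicate 1 (2.39, adjusted p = 0.00327) and without replicate 1 in all groups (2.06, adjusted p = 0.000388). CD46 had 75.2 ± 8.5 and 93.6 ± 9.92 CPM (-0.32, SE 0.138, adjusted p = 0.105). Groups without overlap were found for 3 of 7 members, CD46, CD55 and CD59, all lower, against 43.4% of all genes. The median was -0.32 for the members and 0.00 for all genes.

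**Figure D3:**
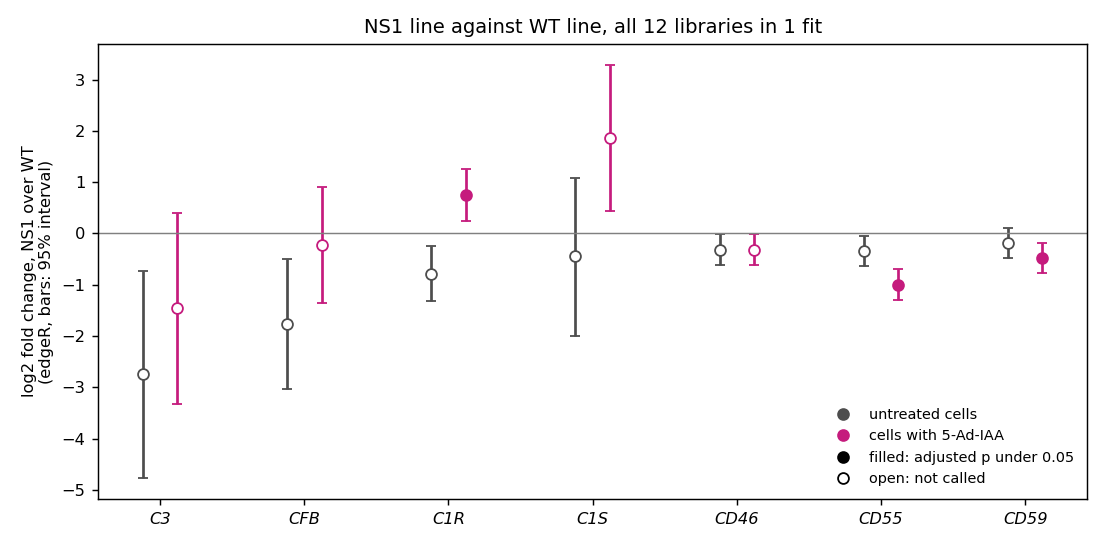
Log2 fold change of NS1 against WT cells for the 7 members, without and with 5-Ad-IAA, from edgeR without a block. Bars are 95% intervals and filled points have an adjusted p under 0.05. C1R lies at -0.78 without and at 0.75 with the inducer, and CD55 lies at -0.34 without it and lower with it.

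Most of the remaining complement system was at or near 0 in these cells. Of 50 other complement genes, 16 had no count in any library, 13 more had at most 3 counts in every library, and 9 passed the filter (C1RL, C2, CFD, C5, C9, CLU, THBD, ITGAX and C1QBP). The 3 chains of C1q, the recognition unit that carries C1r and C1s, had 0 counts throughout. In NS1 cells with the inducer, 1 of the 9 rose and 0 fell without the block, where 6.15% of all genes were called. That gene was C1RL, a protease related to C1r, which had 7.66 ± 2.09 CPM (SD, n = 3) without and 15.7 ± 2.79 CPM with 5-Ad-IAA, or 1.04 on the log2 scale (SE 0.215, edgeR adjusted p = 0.0141). Its call was lost without treated NS1 replicate 3 (adjusted p = 0.0649).

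With the block within each line, 5 of the 9 changed, where 25.9% of all genes were called. C9, a subunit of the final pore, CLU, a fluid-phase inhibitor of that pore, and C1RL rose, while C1QBP, which binds C1q, and THBD, a surface anticoagulant that also restrains complement, fell. These were named after their values were seen, apart from C1RL. In WT cells 0 of 9 were called by edgeR, with or without the block, or by DESeq2, and 0 had an unadjusted p under 0.05. The median log2 fold change of the 9 was 0.33 among NS1 and 0.09 among WT libraries. The interaction without the block called 0 of 9. At an unadjusted p under 0.05 were 2 of the 9 and 2196 of the 17775 genes. DESeq2 called C1RL, and 387 genes in all. The block within each line called 3, where it called 14% of all genes: CLU and C1RL upward and C1QBP downward.

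Between the untreated lines, 1 of these 9 fell in NS1 cells, where 12.5% of all genes were called. CFD, the protease that activates factor B, had 1.58 ± 0.252 CPM (SD, n = 3) in WT and 0.664 ± 0.183 CPM in NS1 cells (log2 fold change -1.29, SE 0.337, edgeR adjusted p = 0.0244). Its call was lost without WT replicate 1 (adjusted p = 0.089), NS1 replicate 1 (0.081) or NS1 replicate 2 (0.101). With the inducer in both lines, 2 of the 9 were called, where 28.2% of all genes were. C1RL rose in NS1 cells by 0.74 (SE 0.21, adjusted p = 0.0187) and C5, the start of the terminal route, fell by 1.06 (SE 0.295, adjusted p = 0.0171), from 2.21 ± 0.221 to 1.03 ± 0.4 CPM. The C1RL call was lost without replicate 2 or 3 of either treated group (adjusted p from 0.0593 to 0.0694), and that of C5 without treated WT replicate 1 or treated NS1 replicate 2 or 3 (adjusted p from 0.0546 to 0.0669). The median of the 9 was -0.06 without and -0.25 with the inducer.

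Regulators of complement transcription were expressed throughout: all 20 listed factors and receptors of the interferon, interleukin-6 and NF-kB routes passed the filter. In NS1 cells, 2 of 20 rose with 5-Ad-IAA without the block and 0 fell, where 6.15% of all genes were called. IRF9, a DNA-binding partner of STAT2, went from 12.1 ± 3.52 CPM (SD, n = 3) to 27.2 ± 7.53 CPM (log2 fold change 1.17, SE 0.252, edgeR adjusted p = 0.0167). IRF1, an interferon-induced activator, went from 12.8 ± 0.907 to 18.8 ± 1.13 CPM (0.56, SE 0.148, adjusted p = 0.0407). The IRF9 call was lost without untreated replicate 1 or treated replicate 2 or 3 (adjusted p from 0.0539 to 0.0779). IRF1 lost its call without any 1 of the 6 NS1 libraries (adjusted p from 0.0882 to 0.126). With the block within each line, 10 of 20 were called, 9 higher and 1 lower, where 25.9% of all genes were called. The 1 lower was SOCS3, a feedback inhibitor of cytokine signalling (-0.47, SE 0.105, adjusted p = 0.00425). Among the higher were STAT2 (0.58, SE 0.09, adjusted p = 0.000239) and SOCS1 (1.94, SE 0.404, adjusted p = 0.00247). SOCS1 rested on few counts, at 0.247 to 0.363 CPM in untreated and 0.416 to 2.08 CPM in treated NS1 cells. The other higher ones were IRF1, IRF9, CEBPD, JAK1, IFNAR2, NFKB2 and RELB. Of these, JAK1, IFNAR2, NFKB2 and RELB were named only after this call was seen.

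In WT cells 0 of 20 regulators were called by edgeR, with or without the block, or by DESeq2, and 0 had an unadjusted p under 0.05. The median over the 20 was 0.18 for NS1 and -0.05 for WT cells. The interaction without the block called 0 of 20. At an unadjusted p under 0.05 were 8 of the 20 and 2196 of the 17775 genes. DESeq2 called 1 regulator, IRF9, and 387 genes in all. The block within each line called 9, of which 8 were upward, where it called 14% of all genes.

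**Figure D4:**
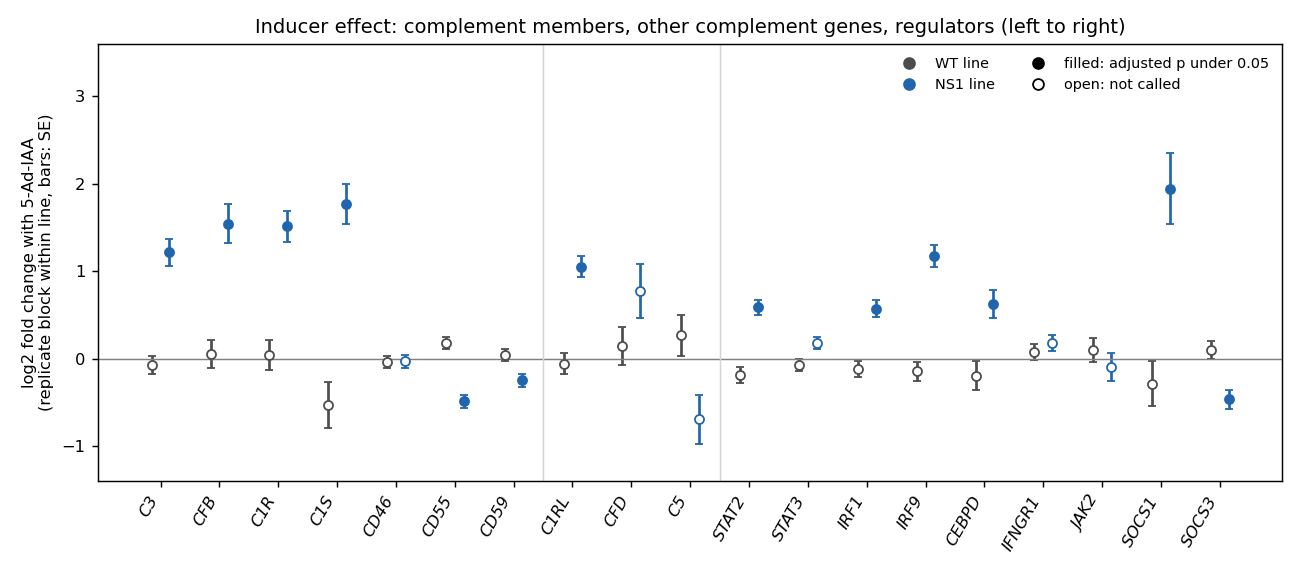
Log2 fold change with 5-Ad-IAA in NS1 and WT cells for the 7 members (left) and for the 3 other complement genes (middle) and 9 regulators (right) that were called in at least 1 comparison without the block. The values shown are from the edgeR fit with the replicate number as a block within each line. Bars are standard errors and filled points have an adjusted p under 0.05. In NS1 cells the components lie between 1.21 and 1.77, CD46 at -0.03, CD59 at -0.25, CD55 at -0.49 and SOCS1 at 1.94, and no WT point is filled. SOCS1 rests on few counts, at 0.247 to 0.363 CPM in untreated NS1 cells.

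The untreated NS1 line had 4 of 20 regulators lower than WT and 0 higher, where 12.5% of all genes were called. IRF1 stood at 27.4 ± 4.18 CPM (SD, n = 3) in WT and 12.8 ± 0.907 CPM in NS1 cells and fell by 1.11 (SE 0.147, edgeR adjusted p = 0.000594). The log2 fold change was -1.15 for IRF9 (adjusted p = 0.0106), -2.57 for SOCS1 (adjusted p = 0.0305) and -0.40 for STAT3, the factor downstream of interleukin-6 (adjusted p = 0.0136). SOCS1 was low, at 0.843 to 2.42 CPM in untreated WT and 0.247 to 0.363 CPM in untreated NS1 cells. In the latter, 3 counts make 0.185 to 0.289 CPM, so the size of its fold change rests on few counts. The call of SOCS1 (adjusted p from 0.0797 to 0.102) was lost in each fit that left out a library of these groups other than WT replicate 1. With the inducer in both lines, 3 were higher in NS1 cells (STAT2, CEBPD and IFNGR1) and 3 lower (IRF1, JAK2 and SOCS3). These are 6 of 20, a share near the 28.2% of all genes called in this comparison. JAK2, a kinase of the interferon-gamma receptor, fell by 0.67 (adjusted p = 0.0326), SOCS3 fell by 0.66 (adjusted p = 0.00514) and STAT2 rose by 0.65 (adjusted p = 0.0271). Of these 6, SOCS3 alone kept its call in all 6 fits that left out a single library of the treated groups. Without replicate 1 in all groups, JAK2 (adjusted p = 0.124) and IFNGR1 (adjusted p = 0.0934) lost theirs.

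The genes whose levels ran closest to each component over the 12 libraries were found by the root mean square difference of centred log2 CPM. For CFB, after the overlapping gene ENSG00000244255 (0.165), these were IFI6 (0.268) and OAS2 (0.281), both interferon-induced genes. IFI6 had group means of 62.5 and 48.1 CPM in WT cells without and with the inducer and 19.2 and 44.0 CPM in NS1 cells. For C3 the nearest was IFI27 (0.85), another interferon-induced gene, at 150 and 135 CPM in WT and 37.0 and 98.4 CPM in NS1 cells. Almost as near to C3 were ENSG00000287037 (0.94) and SGPP2 (0.949). In NS1 cells without and with the inducer, ENSG00000287037 had 1.27 and 1.15 CPM and SGPP2 had 0.423 and 0.926 CPM. The C3 distances were larger than those of the nearest genes of CFB, C1R and C1S. C1R ran closest to BCL3 (0.295), HELZ2 (0.3) and PARD6B (0.305), and C1S to TMEM178B (0.457), PIK3IP1 (0.465) and L1CAM (0.483). Among the members themselves, CD46 and CD59 were nearest (0.143), C1R and C1S lay at 0.718 and C3 and CFB at 1.35. This measure grows with the spread of the genes, and CD46 and CD59 varied little (SD of log2 CPM 0.23 and 0.24). C1R lay nearer to CD46 (0.601) and CD59 (0.679) than to C1S, so a small distance alone does not show genes running together. These distances are descriptions over 12 libraries that share the replicate structure given above.

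Markers of other cell types were low. Of 6 leukocyte markers, CD14 and CD68 passed the filter, and PTPRC, present on all leukocytes, had at most 1 count in any library. Summed leukocyte marker CPM was 14.9 to 26.6 in untreated and 15.4 to 23.4 in treated WT cells, and 8.33 to 16.3 in untreated and 11.1 to 16.2 in treated NS1 cells. Of 5 fibroblast markers COL1A1 passed and DCN was at 0, with sums of 1.65 to 4.08, 1.17 to 3.28, 1.91 to 2.33 and 3.49 to 4.4 CPM in the same order. Of 3 endothelial markers PECAM1 passed, with sums of 1.16 to 3.37, 0.72 to 2.04, 0.0617 to 1.06 and 1.35 to 4.07 CPM. The fibroblast and endothelial sums were thus higher in treated than in untreated NS1 cells, without overlap, and their part in the changes of the components was not tested. Of 12 epithelial and urothelial markers 7 passed, among them KRT7, KRT8, KRT18 and KRT19, while KRT5 and UPK3A were at 0 and CDH1, KRT20 and UPK1A had at most 5 counts in any library. The keratins of simple epithelium were thus abundant and the epithelial cadherin CDH1 was nearly absent. The summed CPM of the 12 was 4350 to 6000 and 5190 to 5940 in WT and 4050 to 7580 and 5090 to 11000 in NS1 cells.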

How the data were processed

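The deposited table holds raw read counts, whole numbers that the authors did not normalise, for 12 poly(A) RNA-seq libraries. The submitters' processing notes name STAR 2.7.3a, featureCounts 1.6.4 and hg38; the annotation, the strand setting and the handling of reads in overlapping genes are not given in the sources used here. All 12 columns were matched to libraries by name. A symbol was found for 60261 of the 60603 identifiers. GENCODE 29 on GRCh38 gave the positions, and a start and end are printed only where the version of the identifier was the same.

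The tests used edgeR 4.0.16 (R 4.3.3) with filterByExpr over the 4 groups, TMM scaling, a single quasi-likelihood fit of the 12 libraries and two-sided glmQLFTest. Calls were made where the p adjusted by Benjamini-Hochberg over the 17775 genes tested was under 0.05. The standard error is the size of the log2 fold change divided by the square root of F. Normalised CPM uses TMM-scaled totals. The fits were also run on simulated counts with the same relative spread for every gene and no difference between replicate numbers. That run cannot show how the fits handle the replicate structure of these libraries.

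All groups carry replicate numbers 1 to 3 in the labels. Deviations from group means correlated within each line between untreated and treated libraries of the same number (0.713, 0.386 and 0.384 in NS1, 0.752, 0.385 and 0.256 in WT cells). All 6 were over 0.1, so a fit that blocks on the number inside either line is given beside the inducer results. Replicates 2 and 3 correlated across numbers too (0.248 to 0.371). Across lines the correlations ran from 0.00601 to 0.19 and the numbers were not taken as pairs.

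Alternatives were library totals, RLE size factors, no or a stricter low-count filter, DESeq2 1.42.0, only the groups compared, replicate blocks and leaving out libraries. The block combined with leaving out a replicate number was added after seeing the data. The text names all members, and of the other complement genes and regulators those that passed the filter and were called in at least 1 comparison; exceptions are stated. A few listed genes are not reported here and are left out of the counts of their lists. The members and lists were chosen with earlier results of these data known.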

Additional observations from a re-analysis of the deposited data

Results flagged for a closer look

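The effect of 5-Ad-IAA differed between NS1 and WT cells for 12 of the genes considered. The genes considered were the 7 members tested and the listed genes called without the block in at least 1 comparison. The interaction was tested in edgeR with the replicate number as a block within each line, where 14% of all genes were called. The listed genes were taken by calls in these same data, so the count of 12 cannot be set against that share. Without the block none of the 12 passed, and the design holds 3 libraries per group. Values are the log2 effect in NS1 cells minus that in WT cells. Among the complement components the difference was 1.29 for C3 (SE 0.181, adjusted p = 0.000356), 1.49 for CFB (SE 0.277, adjusted p = 0.00238), 1.47 for C1R (SE 0.247, adjusted p = 0.00115) and 2.30 for C1S (SE 0.354, adjusted p = 0.000634). CD55 had -0.67 (SE 0.102, adjusted p = 0.000568), and C1RL had 1.11 (SE 0.167, adjusted p = 0.000514).

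Of the regulators, the difference was 0.77 for STAT2 (adjusted p = 0.00109), 0.69 for IRF1 (adjusted p = 0.00295), 1.32 for IRF9 (adjusted p = 0.000146), 2.23 for SOCS1 (adjusted p = 0.00634) and 0.82 for CEBPD (adjusted p = 0.0295). SOCS3 had the opposite sign, -0.57 (adjusted p = 0.0167). The SOCS1 value rests on few counts, at 0.247 to 0.363 CPM in untreated NS1 cells. No formal test for outlying values was run on these groups of 3 libraries. Replicate 1 stood apart in all 4 groups, and fits without it are given above for the members. JAK1, RELB, IFNAR2, CLU and C1QBP, which were not called without the block in any comparison, also passed this test and are counted in the report.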

How the results depend on the processing

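The number of members called by edgeR for the inducer in NS1 cells was 1, and it became 2 with library totals, 5 with no low-count filter, 3 with DESeq2, 3 with 1 replicate block per number and 6 with the replicate block within each line. With that last block and any 1 replicate number left out it was 5. Leaving out libraries with no block gave 0 to 5. For the untreated lines it was 0, and 1 with library totals, 3 with no filter, 2 with DESeq2, 3 with only the groups compared and 3 with the replicate block, and 0 to 3 on leaving out libraries. For the treated lines it was 3, and 4 with DESeq2, 5 with no filter, 6 with the replicate block and 1 to 5 on leaving out libraries. The interaction had 0, and 5 with no filter, 1 with DESeq2, 1 with the replicate block, 5 with the block within each line (4 without number 1, 5 without number 2 or 3) and 0 to 4 on leaving out libraries. The inducer in WT cells had 0 in every setting tried. The cause of these shifts was not tested.

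Over all genes, 1093 were called for the inducer in NS1 cells, against 1801 with no filter, 2421 with the replicate block and 4596 with it within each line, and 2021, 0 and 0 without replicate 1, 2 or 3. With the within-line block and a number left out there were 1822, 3183 and 4676. For the untreated lines 2222 became 3908 with the replicate block and 3466, 204 and 182 without replicate 1, 2 or 3. For the treated lines 5007 became 1632 without replicate 2 and 2127 without replicate 3. The interaction had 4, against 7 with RLE, 33 with the stricter filter, 387 with DESeq2, 683 with no filter, 634 with the replicate block, 2495 with it within each line and 573, 0 and 0 without replicate 1, 2 or 3. The within-line block without a number gave 417, 1420 and 3725. Library totals changed the split of higher and lower genes from 490 and 603 to 370 and 759 in NS1 cells, and from 2426 and 2581 to 1863 and 3182 between the treated lines.

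Some signs turned. The CD46 interaction was -0.0461 with library totals, -0.00339 with no filter and -0.00329 with DESeq2, and -0.0351 and -0.0666 in the within-line block without number 1 or 2, and ran from -0.12 to 0.13 on leaving out libraries. CD46 in NS1 cells ran from -0.147 to 0.0474, and was 0.0466 in the within-line block without number 3. In WT cells leaving out libraries gave -0.43 to 0.40 for C3, -0.25 to 0.41 for CFB, -0.15 to 0.17 for C1R, -0.124 to 0.0776 for CD46 and -0.0765 to 0.158 for CD59. C1S between the untreated lines ran from -0.83 to 0.0614, and CFB between the treated lines from -0.84 to 0.57. Of 912 log2 fold changes recomputed under the alternatives, 679 kept their direction and side of the threshold.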
